A study of Mus musculus with 17 samples.

Results

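Lungs from tumor-bearing mice that had received interleukin-12 secreting myeloid cells were compared with lungs from mice given neither tumor nor cells, to see which genes stood at the tumor-free level and which stood away from it. The comparison used 8 of the 17 libraries in the series, all from C57BL/6 mice. The 4 tumor_GEMy libraries came from mice that carried M3-9-M, a rhabdomyosarcoma of mouse origin marked with luciferase and mCherry and started from 500000 cells in the gastrocnemius, a calf muscle. These mice received 8000000 IL12-GEMy cells by vein on day 12, and their lungs were taken on day 15, 3 days after the cells. The 4 naive_untreated libraries came from lungs of mice with no tumor and no treatment. A further 4 libraries, tumor_untreated, had the same tumor and no cells, and served to say where each gene stood without treatment. IL12-GEMys are myeloid cells of bone marrow origin, made by lentiviral transduction with the growth factors SCF, FLT3L and IL-6. The labels give no age or sex, and the tumor is 1 transplanted line grown in 1 muscle, away from the lung.

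Interleukin-12 is a cytokine of activated myeloid cells. It binds a receptor on natural killer and T cells and drives them to make interferon-gamma. Interferon-gamma acts mainly through a short palindromic DNA element called GAS, while type I interferons act mainly through the element called ISRE. Among the genes they induce are antiviral GTPases, the antigen presentation machinery and chemokines that attract lymphocytes. A tumor at a distance can change the lung before tumor cells arrive, and neutrophils and monocytes carrying S100a8 and S100a9 are a known feature of that state, called the pre-metastatic niche.

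Assigned reads recovered from the deposited values were 27939747 to 29721394 per naive_untreated library and 29990855 to 36815044 per tumor_GEMy library. Lung identity was checked with 8 markers, among them the surfactant gene Sftpc and the club cell gene Scgb1a1, whose summed level was 13390 to 14630 FPKM in naive_untreated, 10430 to 12090 in tumor_GEMy and 0.47 in the injected cells. Of 6 tumor and skeletal muscle markers, 3 were listed, and their sum was 0.931 to 1.44 FPKM in naive_untreated and 0.806 to 1.03 in tumor_GEMy. Hemoglobin genes summed to 291 to 2235 and 484 to 3827 FPKM. Titles number the samples without saying that each was a different animal, so the p-values reflect only library-to-library spread, which may be technical. Sample descriptions of all 4 tumor_GEMy samples also carry a 2 where all 4 tumor_untreated samples carry a 1, and whatever that number stands for cannot be told apart from treatment.

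Treated tumor-bearing lungs remained far from untouched lungs. Of 10284 genes tested with limma on log2(FPKM + 0.5), 4038 (39.3%) differed at an adjusted p under 0.05, with 1403 (13.6%) higher and 2635 (25.6%) lower in tumor_GEMy. Large differences were nearly all rises, as 306 genes (2.98%) were at least 2-fold higher and 15 (0.146%) at least 2-fold lower. The libraries of the 2 groups did not overlap for 1393 genes (13.5%) with higher values in tumor_GEMy and 2721 (26.5%) with lower values. Over all genes tested the median log2 difference was -0.067 and the median SE was 0.075. The excess of lower genes depended on scaling: after median-of-ratios scaling 1811 genes were higher and 1605 lower, so that 53% of calls were higher against 34.7% before. Fold changes include the added 0.5 and understate those of low genes. In whole lung, more cells of a type and more RNA per cell cannot be told apart.

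To say where the tumor-changed genes stood after treatment, 346 genes (3.36% of those tested) were taken that differed at least 2-fold between tumor_untreated and naive_untreated, 336 higher and 10 lower. After treatment 334 of them still differed from naive_untreated. A gene was said to have returned if the 95% interval of its difference from naive_untreated lay within 2-fold and tumor_GEMy differed from tumor_untreated towards the naive level. This held for 33 genes (9.54%), all of them raised by the tumor, and 25 of these 33 still passed the test against naive_untreated at a smaller distance. A gene had stayed away if it was still at least 2-fold from naive_untreated in the same direction, which held for 222 (64.2%). Of these, 49 had moved further away, 48 had moved part of the way back and 125 did not differ from tumor_untreated beyond the threshold. The other 91 (26.3%) met neither rule. Both distances use the same naive_untreated libraries. The tumor_untreated libraries picked the 346 genes and also served as the reference for moves, which favours moves back over moves further away. The counts are therefore descriptions. Both tumor-bearing groups were taken on day 15, and no library was taken before the cells were given. Returned, moved and stayed therefore compare groups and do not follow a gene over time.

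**Figure D1:**
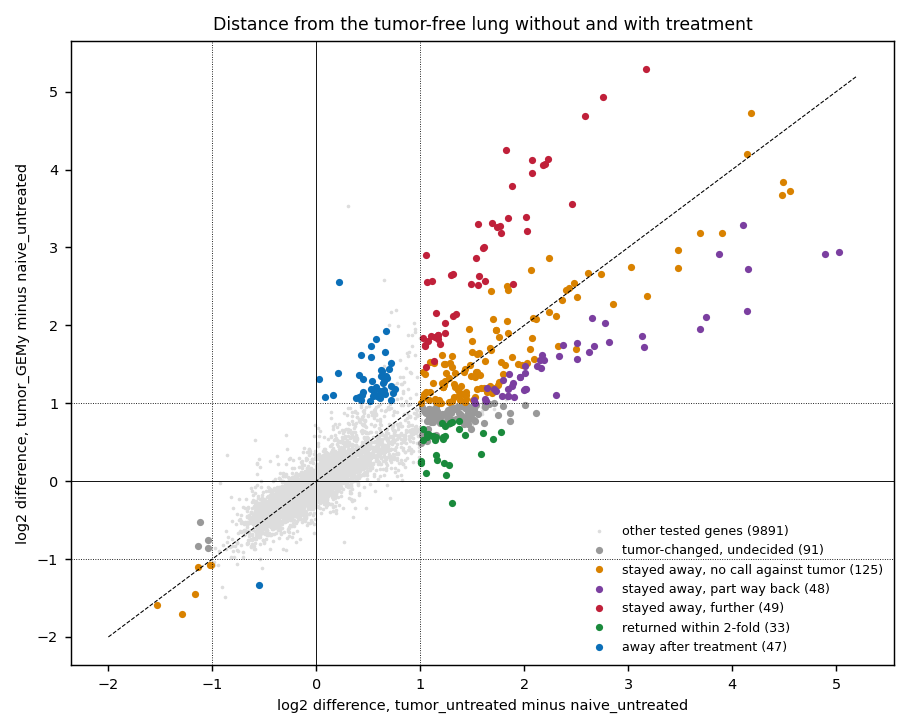
Each point is a tested gene, with its log2 difference from naive_untreated in tumor_untreated on the horizontal axis and in tumor_GEMy on the vertical axis; dotted lines mark 2-fold and the dashed line equal distance. The 49 genes further away lie above the dashed line, the 48 part way back lie below it but above 2-fold, and the 33 that returned lie within 2-fold of naive_untreated.

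Which genes count as returned depended on 1 library and on the treatment of low values. Without tumor_untreated replicate 1, 68 genes met the rule for a return, the 33 among them, and with a margin of 1.5-fold in place of 2-fold only 6 did. A pseudocount of 0.1 also gave 33 genes, of which 13 were among the 33 named here, and voom on recovered reads gave 31, of which 12 were. That library, replicate 1, lay closest of its group to naive_untreated on the first principal component of the 12 libraries, at 2.33 where the other tumor_untreated libraries were at 11.1 to 28.1 and naive_untreated at -29.5 to -26.7. The tumor_GEMy libraries lay at 10.5 to 16.7 on that component, which held 63.9% of the variance. On the second, with 12.3%, they were at 8.63 to 14.5 and tumor_untreated at -13.4 to -8.88.

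Of the gene lists, interferon-inducible GTPases, which restrict pathogens inside cells, had the highest median above the tumor-free level. All 17 tested members of that list were higher in tumor_GEMy, with a median log2 difference of 3.37, and 16 of the 17 belonged to the genes that had moved further away. Igtp (chromosome 11, 58199556 to 58207592) was at 6.16, 7.09, 5.87 and 5.81 FPKM in the naive_untreated libraries and at 122, 120.1, 126 and 102 FPKM in tumor_GEMy. The tumor_untreated libraries lay between, at 18.7, 28.9, 35.6 and 47.5 FPKM, with no overlap among the 3 groups. The log2 difference from naive_untreated was 4.13 (SE 0.19, adjusted p = 1.19e-09).

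The guanylate-binding protein gene Gbp2 (chromosome 3, 142620663 to 142638008) showed the same order. It was at 5.74 to 6.60 FPKM in naive_untreated, 12.7 to 57.6 in tumor_untreated and 90.9 to 125 in tumor_GEMy (log2 difference from naive_untreated 4.06, adjusted p = 1.02e-07). Tgtp1, another interferon-inducible GTPase gene (chromosome 11, 48985329 to 48992246), went from 2.47 to 3.25 FPKM in naive_untreated to 75.1 to 95.7 in tumor_GEMy (log2 4.69, SE 0.27, adjusted p = 1.26e-08). Gbp10 (4.25), Iigp1 (4.12), Gbp6 (4.07) and Gbp5 (3.95) were also among the 10 largest rises that met the rule for named genes. Tgtp1 and Tgtp2, and Gbp6 and Gbp10, are close paralogs, and how reads shared between copies were counted is not given in the sources used here.

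Promoters were read for these genes because the 2 interferon elements have known sequences. The lines below show the 250 bases before the RefSeq start (GRCm38.p6) on the gene's strand for 3 GTPase genes, the chemokine gene Cxcl10 and the neutrophil gene S100a8, with capitals for matches to the ISRE core, which is GAAA, any 2 bases and GAAA again, or its reverse complement, and to the GAS element TTCNNNGAA.
Gbp2 (chr3:142620413-142620662, plus strand): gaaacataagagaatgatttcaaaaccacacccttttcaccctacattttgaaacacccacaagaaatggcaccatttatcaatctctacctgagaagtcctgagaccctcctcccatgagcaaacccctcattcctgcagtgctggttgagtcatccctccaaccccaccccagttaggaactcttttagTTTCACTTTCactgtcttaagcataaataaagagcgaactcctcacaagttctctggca
Tgtp1 (chr11:48992247-48992496, minus strand): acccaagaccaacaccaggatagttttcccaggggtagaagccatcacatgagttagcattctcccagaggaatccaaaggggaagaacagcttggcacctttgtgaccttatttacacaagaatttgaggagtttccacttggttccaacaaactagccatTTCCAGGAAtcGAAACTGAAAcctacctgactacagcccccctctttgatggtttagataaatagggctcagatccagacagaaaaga
Igtp (chr11:58199306-58199555, plus strand): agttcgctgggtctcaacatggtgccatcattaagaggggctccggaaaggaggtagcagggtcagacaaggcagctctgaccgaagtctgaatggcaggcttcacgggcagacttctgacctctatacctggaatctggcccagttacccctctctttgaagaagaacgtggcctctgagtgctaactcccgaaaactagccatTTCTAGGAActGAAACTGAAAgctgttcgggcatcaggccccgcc
Cxcl10 (chr5:92348890-92349139, minus strand): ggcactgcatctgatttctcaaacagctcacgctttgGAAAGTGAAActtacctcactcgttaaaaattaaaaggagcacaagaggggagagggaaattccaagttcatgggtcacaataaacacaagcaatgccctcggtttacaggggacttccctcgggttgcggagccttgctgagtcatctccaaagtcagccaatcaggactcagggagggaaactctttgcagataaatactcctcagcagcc
S100a8 (chr3:90668821-90669070, plus strand): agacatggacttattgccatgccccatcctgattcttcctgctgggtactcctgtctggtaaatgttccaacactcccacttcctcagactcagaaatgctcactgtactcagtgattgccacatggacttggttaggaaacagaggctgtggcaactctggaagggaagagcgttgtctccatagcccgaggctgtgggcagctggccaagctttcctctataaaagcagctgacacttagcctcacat

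In Igtp and Tgtp1 a GAS match and an ISRE core match stood side by side, the GAS match starting 45 and 88 bases before the RefSeq start and the ISRE match 34 and 77 bases before it. The Gbp2 match lay on the other strand, starting 59 bases before the start, and the Cxcl10 match 213 bases before it. The S100a8 window held no match, which says only that these letters are not in it. Both strands were searched, the 2 motifs may overlap, and a match is not a binding site. Of 10194 promoters of tested genes, 2.9% held the ISRE core and 5.79% GAS. Of 33 promoters matched to 30 of the 49 genes further away, 14 (42.4%) held the ISRE core and 14 (42.4%) GAS. Cd274, Tap1 and Ccl8, also further away, had neither match. The genes further away hold 16 of the GTPase list, some of them close paralogs, so their promoters are not independent. For the genes part way back the shares were 2.38% and 16.7% of 42 promoters, and for the returned genes 23.1% and 15.4% of 26. For genes that stayed away with no call against tumor_untreated they were 15.1% and 9.24% of 119. For the genes newly away after treatment, described below, they were 20.8% and 8.33% of 48. Promoter entries were matched for 41 of the 48 genes part way back and 24 of the 33 returned genes.

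**Figure D2:**
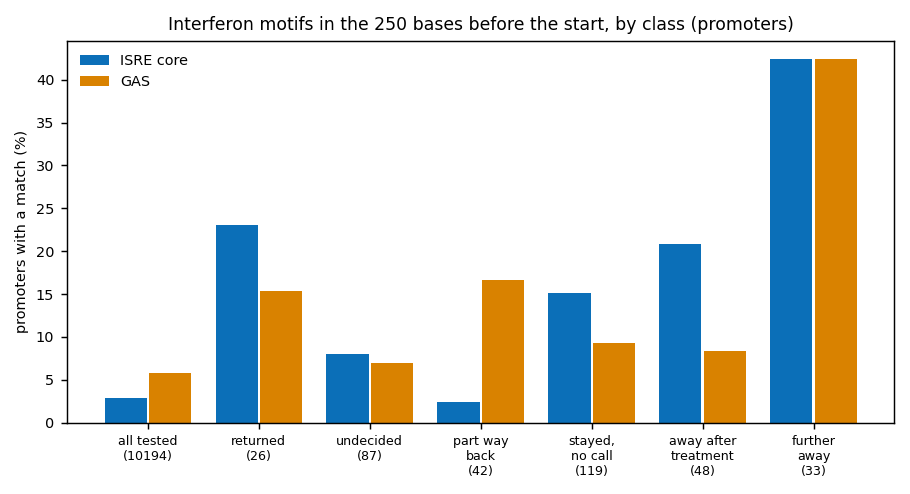
Bars give the percentage of promoters (250 bases before the RefSeq start) with an ISRE core or a GAS match, by where the gene stood after treatment, with the number of promoters in brackets. Genes further away had 42.4% for both motifs, against 2.9% and 5.79% of all promoters of tested genes.

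The interferon-gamma gene itself stood away from the tumor-free level. Ifng was at 0.0369, 0.0562, 0.029 and 0.0555 FPKM in naive_untreated and at 1.46, 1.94, 2.30 and 1.34 FPKM in tumor_GEMy. Every tumor_GEMy library was above every tumor_untreated library, whose highest was 1.18 FPKM, and the log2 difference from naive_untreated was 2.03 (SE 0.20, adjusted p = 1.74e-06). The list of interleukin-12 pathway and type 1 lymphocyte genes had 8 of 12 tested members higher and 0 lower, where 13.6% of all tested genes were higher. Among the 8 were the receptor subunit gene Il12rb1 (0.98), the interleukin-18 receptor subunit gene Il18rap (1.32) and Tbx21 (1.43). Tbx21 encodes the T-bet factor of type 1 lymphocytes. Ifngr1 and Ifngr2, the interferon-gamma receptor genes, had log2 differences of 0.07 and -0.06 that did not pass. In tumor_untreated 10 of the 12 were higher than in naive_untreated, where 16.9% of all tested genes were. Compared directly with tumor_untreated, 4 were higher and 3 lower in tumor_GEMy, where 3% of all tested genes were higher and 3.72% lower.

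Several genes of interest lay under the minimum level and were taken from a fit on reads per 1000000 assigned reads (RPM) over 15422 genes. The interleukin-12 subunit gene Il12a was at 2.00 ± 0.205 RPM in naive_untreated and 0.823 ± 0.098 in tumor_GEMy (SD, n = 4), a fall of 0.92 on the log2 scale in limma (adjusted p = 0.000236). The other subunit gene, Il12b, rose from 0.872 ± 0.300 to 3.82 ± 0.757 RPM (log2 1.66, adjusted p = 1.48e-05). Il12rb2, the inducible receptor subunit, rose from 3.51 ± 0.720 to 11.0 ± 1.35 RPM (log2 1.53, adjusted p = 9.69e-07). The limma test made no call for the nitric oxide synthase gene Nos2 (log2 0.03, adjusted p = 0.925) or the regulatory T cell factor gene Foxp3 (log2 0.43, adjusted p = 0.0927).

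Other interferon-gamma response genes were high as well, with 20 of 22 tested members higher and a median of 2.07. Serpina3f, a serine protease inhibitor gene (chromosome 12, 104214544 to 104221129), was at 0.522, 0.383, 0.417 and 0.618 FPKM in naive_untreated and 28.0, 34.4, 34.4 and 22.6 FPKM in tumor_GEMy. Its tumor_untreated libraries reached 9.47 FPKM, below the lowest tumor_GEMy library. On log2(FPKM + 0.5) its difference of 4.93 was the largest among named genes (SE 0.24, limma adjusted p = 3.05e-09). The added 0.5 compresses low genes, and the read floors given below for Gzmg and Gzmd are larger folds. Cd274, which encodes the checkpoint ligand PD-L1, was at 1.43 to 1.77 FPKM in naive_untreated and at 26.5, 30.3, 32.5 and 24.5 FPKM in tumor_GEMy (log2 3.79, SE 0.28, adjusted p = 9.01e-08). Ido1, an enzyme that breaks down tryptophan, was at 0.0904 to 0.106 FPKM and 3.77 to 8.45 FPKM (log2 3.30, adjusted p = 3.54e-06). The log2 difference of Ido1 ran from 2.55 to 5.74 across settings. Icam1 and Cd40 did not pass, at 0.02 each.

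Chemokine genes that attract CXCR3-bearing lymphocytes stood away from the tumor-free level, with no call against tumor_untreated. Cxcl10 (chromosome 5, 92346639 to 92348889) was at 0.553 to 0.687 FPKM in naive_untreated, 6.98, 16.6, 29.5 and 41.1 FPKM in tumor_untreated and 22.3, 40.8, 36.3 and 20.5 FPKM in tumor_GEMy. The tumor-bearing groups overlapped with each other, and both lay wholly above naive_untreated. The log2 difference from naive_untreated was 4.73 (SE 0.39, adjusted p = 3.53e-07), and that from tumor_untreated was 0.55 (SE 0.39, adjusted p = 0.488). Cxcl9 differed from naive_untreated by 4.20 (adjusted p = 1.20e-06) and from tumor_untreated by 0.06 (SE 0.39, adjusted p = 0.963). With errors of this size, a missed threshold does not show that the tumor-bearing groups were alike. In the chemokine list 16 of 24 tested members were higher, 1 was lower (Cxcl14, -0.71) and the median was 1.08. Ccl8 (2.63), a monocyte chemokine gene, was the 1 member among the genes further away.

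Antigen presentation genes were higher throughout the class I list, where 21 of 21 tested members rose with a median of 1.37. Tap1, a subunit of the peptide transporter, was at 7.45 to 8.95 FPKM in naive_untreated and at 53.1, 55.8, 51.6 and 41.0 FPKM in tumor_GEMy (log2 2.54, SE 0.16, adjusted p = 2.35e-08). The nonclassical class I gene H2-T23 (2.16) and the immunoproteasome subunit gene Psmb8 (1.84) rose too. In the class II list 9 of 13 tested members were higher and 2 lower, and the median was 0.83. H2-Ob, part of an inhibitor of peptide loading found in B cells, fell by 0.69, and H2-DMb2 fell by 0.36. With median-of-ratios scaling or quantile normalization 1 member of this list was lower.

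All 26 tested members of the type I interferon list were higher, with a median of 1.63. Zbp1, a sensor of nucleic acids, led at 3.56, followed by Isg15 (2.71) and the antiviral gene Rsad2 (2.67). Many of these genes also respond to interferon-gamma. Against tumor_untreated, 14 of the 26 were higher and 0 lower, where 3% of all tested genes were higher.

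**Figure D3:**
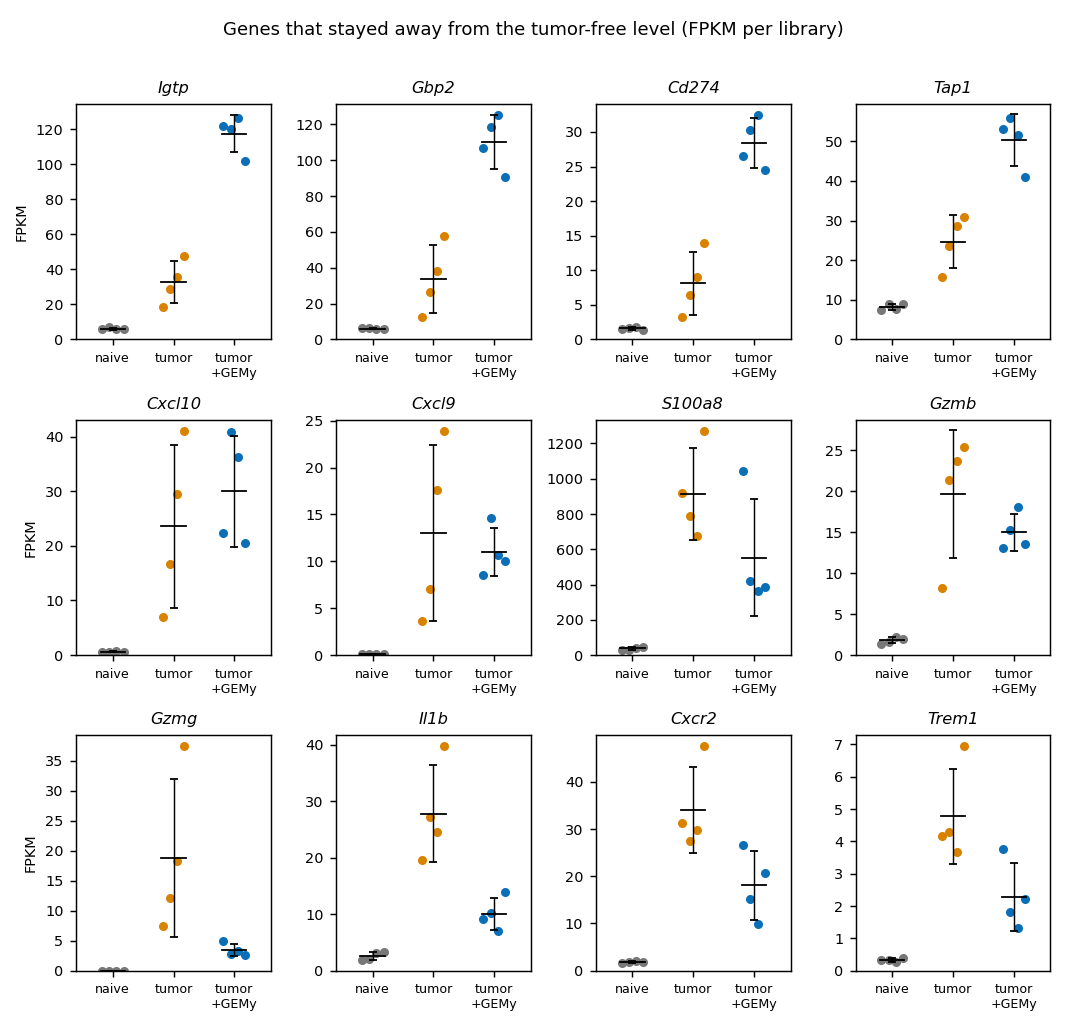
Points are FPKM in single libraries of naive_untreated, tumor_untreated and tumor_GEMy (4 each), with the group mean and SD, on linear axes that start at 0. Igtp, Gbp2, Cd274 and Tap1 were highest in tumor_GEMy, Cxcl10, Cxcl9 and Gzmb were raised in both tumor-bearing groups, and Gzmg, Il1b, Cxcr2 and Trem1 had group means between those of the other groups.

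Neutrophil genes stayed above the tumor-free level, and some had moved part of the way back. Of 24 tested members 22 were higher than in naive_untreated, with a median of 1.75, and 12 stayed away with no call against tumor_untreated while 7 were part way back. Against tumor_untreated 8 of the 24 were lower and 0 higher, where 3.72% of all tested genes were lower. Il1b, an inflammatory cytokine gene, was at 1.96, 2.11, 3.17 and 3.37 FPKM in naive_untreated, 19.6, 27.1, 24.6 and 39.8 in tumor_untreated and 9.08, 10.1, 6.96 and 13.8 in tumor_GEMy. The 3 groups did not overlap, and the log2 difference from naive_untreated was 1.72 (SE 0.22, adjusted p = 2.00e-05). Cxcr2, the receptor that draws neutrophils from marrow, stood at 2.92 (adjusted p = 2.08e-07) and Trem1, an amplifier of myeloid inflammation, at 1.66 (adjusted p = 1.85e-05).

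S100a8, a calcium-binding protein gene abundant in neutrophils (chromosome 3, 90669071 to 90670034), was at 30.5, 31.5, 41.6 and 48.3 FPKM in naive_untreated and at 1046, 419, 362 and 385 FPKM in tumor_GEMy. Replicate 1 stood apart from the other 3, but all 4 were above every naive_untreated library (log2 3.72, SE 0.32, adjusted p = 4.12e-07). Without replicate 1 the difference was 3.36. Summed over the neutrophil list, replicate 1 was at 2366 FPKM, the other tumor_GEMy libraries at 787 to 924, tumor_untreated at 1408 to 2531 and naive_untreated at 111 to 159. Without replicate 1 the list still had 22 members higher and a median of 1.62. The injected cells carried S100a8 at 493 FPKM and Mmp8 at 87.6 FPKM, but Retnlg at 0.119 and Ly6g at 0.0665. Ly6g, a surface marker of mouse neutrophils, was at 0.0529 to 0.174 FPKM in naive_untreated and 2.79 to 10.5 in tumor_GEMy (log2 2.97, adjusted p = 1.74e-06).

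Granule genes of immature myeloid cells were also higher, with 6 of 6 tested members above naive_untreated and a median of 0.97, a list that includes Nkg7 and Chil3, which other cells express too. Without tumor_GEMy replicate 1 the count was 5 of 6 and the median 0.86. Prtn3 went from 0.140 to 0.259 FPKM in naive_untreated to 0.694 to 2.55 in tumor_GEMy, with replicate 1 highest (log2 1.26, adjusted p = 0.000252). Summed over 4 marrow progenitor markers (Mpo, Elane, Prtn3 and Kit), the level was 3.29 to 4.06 FPKM in naive_untreated, 4.64 to 9.39 in tumor_GEMy and 418 in the injected cells, and 2 of the 3 tested were higher. The part of injected cells in these values was not tested.

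Cytotoxic lymphocyte and natural killer genes were higher for 18 of 19 tested members, with a median of 1.66, but the granzymes did not share 1 order. Gzma was at 2.74 to 4.70 FPKM in naive_untreated, 7.24 to 18.3 in tumor_untreated and 21.0 to 38.3 in tumor_GEMy, and belonged to the genes further away (log2 2.57, adjusted p = 2.43e-06). Gzmb stayed away at 13.0, 15.3, 18.1 and 13.5 FPKM against 1.36 to 2.25 in naive_untreated (log2 2.75, adjusted p = 1.20e-06). Its difference from tumor_untreated was -0.27 (SE 0.26, adjusted p = 0.632). The genes Gzmc, Gzmd, Gzme, Gzmf and Gzmg, neighbouring paralogs between which reads may be split, were part way back.

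Gzmg had 0 reads in the 4 naive_untreated libraries and 4.95, 2.83, 3.32 and 2.63 FPKM in tumor_GEMy, where tumor_untreated held 7.39 to 37.4. Against a floor of 3 reads over the naive_untreated group, tumor_GEMy was at least 405-fold higher and tumor_untreated at least 2174-fold higher. For Gzmd, also at 0 reads, the bounds were 398-fold and 1957-fold. These floors cover counting error only. T cell receptor complex and lineage genes rose less, with 8 of 9 tested members higher and a median of 0.56. The exception was Cd4 (0.20), and Cd8a was at 0.98 (adjusted p = 0.00399). The T cell count was 6 without naive_untreated replicate 1 or 2 or tumor_GEMy replicate 2. It was 7 without tumor_GEMy replicate 3 and 9 with median-of-ratios scaling.

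Monocyte and macrophage genes were higher for 17 of 21 tested members, 1 was lower, and the median was 1.14. Of all tested genes 13.6% were higher and 39.3% differed in either direction. The monocyte gene Ly6c2 was at 4.94 to 6.70 FPKM in naive_untreated and 38.6 to 56.2 in tumor_GEMy (log2 2.86, adjusted p = 7.31e-08), and the Fc receptor gene Fcgr4 was at 2.48 (adjusted p = 1.63e-08). Apoe fell by 0.55. Of 12 alveolar macrophage genes 3 were higher and 1 lower, with a median of 0.08, a share near that 39.3%. Of 10 dendritic cell genes 5 were higher and 3 lower, with Ccl17 at 1.61 and Cd209a at -0.88. The higher count was 3 without naive_untreated replicate 2 or tumor_GEMy replicate 2, and the lower count was 1 with median-of-ratios scaling or without naive_untreated replicate 3 or 4 or tumor_GEMy replicate 3.

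Among genes that returned, the myeloid enzyme gene Arg1, whose product uses up arginine, came close to the tumor-free level (chromosome 10, 24915207 to 24927470). It was at 0.196, 0.195, 0.172 and 0.184 FPKM in naive_untreated, 0.549, 0.801, 1.55 and 2.04 in tumor_untreated and 0.142, 0.250, 0.212 and 0.298 in tumor_GEMy. The tumor_GEMy libraries overlapped naive_untreated and lay below every tumor_untreated library. The log2 difference from naive_untreated was 0.08, with a 95% interval of -0.33 to 0.48. All these values lie near or below the added 0.5, so the log2 scale is compressed there.

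Nr4a1, an immediate early nuclear receptor gene (chromosome 15, 101266846 to 101274794), was at 8.05, 5.85, 12.6 and 18.3 FPKM in naive_untreated, 24.5 to 30.1 in tumor_untreated and 8.13, 9.20, 7.05 and 9.34 in tumor_GEMy. Its untouched libraries were spread more widely than the treated ones, and the difference was -0.28 (95% interval -0.77 to 0.22). Hmox1, the heme-degrading enzyme gene, was at 6.31, 6.37, 6.79 and 7.21 FPKM in naive_untreated, 11.2 to 17.2 in tumor_untreated and 7.17, 7.88, 6.53 and 7.35 in tumor_GEMy (log2 0.11, 95% interval -0.10 to 0.32). It was chosen after its values were seen, and was 1 of the 6 genes that met the rule at a margin of 1.5-fold. The other 5 were Arg1, Cd300ld3, Ms4a4a, Spry4 and the uncharacterised D7Ertd143e.

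The myeloid receptor genes Treml4 and Cd300e also returned by the rule, at 0.35 (95% interval -0.20 to 0.89) and 0.21 (-0.21 to 0.62), each with overlapping libraries. Slc40a1, the iron exporter gene, fell from 4.00 to 4.99 FPKM in tumor_untreated to 1.30 to 2.42 in tumor_GEMy but stayed above the 0.884 to 1.21 of naive_untreated (log2 0.63, adjusted p = 0.000867). The signalling inhibitor gene Socs3 (0.74), named after its values were seen, stood near the outer edge of the returned genes. No gene lowered by the tumor met the rule: of the 10, 6 stayed away and 4 (Ppp1r3c, Scd1, Shisa2 and Thrsp) met neither rule.

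**Figure D4:**
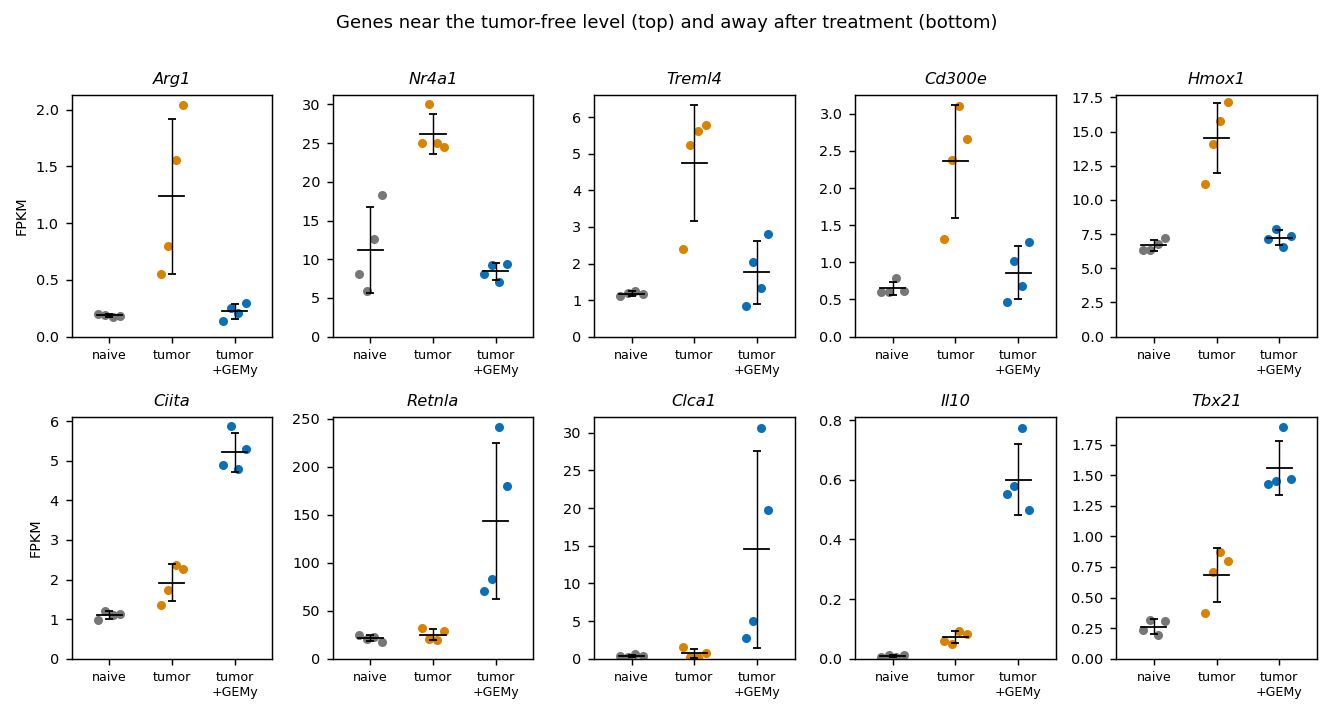
Points are FPKM in single libraries of the 3 groups (4 each), with the group mean and SD, on linear axes that start at 0. In the upper row Arg1, Nr4a1, Treml4, Cd300e and Hmox1 in tumor_GEMy overlap naive_untreated, and in the lower row Ciita, Retnla, Clca1, Il10 and Tbx21 in tumor_GEMy lie above every library of the other groups.

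A further 47 genes were at least 2-fold from naive_untreated after treatment although the tumor alone had left them within 2-fold by the interval, 46 higher and 1 lower. Of these, 41 had already differed in tumor_untreated by less than 2-fold. Without tumor_untreated replicate 1 the count was 31, all of them among the 47, and with a margin of 1.5-fold it was 4. Of the 47, 27 were kept with a pseudocount of 0.1, 33 with 1, 27 on RPM and 26 with voom. Ciita, the transactivator of class II genes (chromosome 16, 10480072 to 10527640), was at 0.980, 1.20, 1.11 and 1.13 FPKM in naive_untreated, 1.34 to 2.35 in tumor_untreated and 4.89, 5.87, 4.78 and 5.30 in tumor_GEMy (log2 1.83, SE 0.12, adjusted p = 2.25e-08). The tumor_GEMy libraries were all above the others. Apol9b (1.92), Ifi44 (1.65) and Apol9a (1.62), interferon-induced genes of which the Apol9 pair are close copies, were also named by the rule.

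Retnla, a type 2 response gene made by macrophages and epithelium (chromosome 16, 48842609 to 48844461), was at 24.3, 20.8, 22.7 and 17.1 FPKM in naive_untreated, 19.5 to 31.7 in tumor_untreated and 71.1, 83.0, 241 and 180.2 in tumor_GEMy (log2 2.56, SE 0.31, adjusted p = 1.35e-05). All 4 tumor_GEMy libraries were above the rest, with replicates 3 and 4 more than replicates 1 and 2. Clca1, a goblet cell secretory gene, followed the same libraries, at 2.69, 5.03, 30.6 and 19.7 FPKM against 0.268 to 0.572 in naive_untreated (log2 3.53, SE 0.57, adjusted p = 0.000281). The 95% interval of its difference in tumor_untreated, -0.92 to 1.53, was too wide for the rule. The injected cells were listed at 0 for both genes, and tumor-free lungs given the cells were at 21.4 ± 3.41 FPKM for Retnla and 0.510 ± 0.439 for Clca1 (SD, n = 4). Il10, an anti-inflammatory cytokine gene, went from 0.0101 ± 0.00363 FPKM in naive_untreated to 0.601 ± 0.120 in tumor_GEMy (log2 1.10, SE 0.07, adjusted p = 2.56e-08). Both Il10 means lie near or below the added 0.5, and the log2 difference ran from 0.66 to 5.50 across settings.

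Among the falls that met the rule for named genes, that of Cyp1a1 was the largest. Cyp1a1, a detoxifying enzyme gene under control of the aryl hydrocarbon receptor (chromosome 9, 57687928 to 57703824), was at 3.23, 3.23, 2.12 and 3.37 FPKM in naive_untreated and 0.446, 0.694, 0.398 and 0.743 in tumor_GEMy (log2 -1.70, SE 0.18, adjusted p = 3.54e-06). The groups did not overlap, and the difference from tumor_untreated was -0.41 (SE 0.18, adjusted p = 0.215). Ankrd63 (-1.59), the apelin receptor gene Aplnr of endothelium (-1.48), the B cell IgE receptor gene Fcer2a (-1.45), Sox11 (-1.36), Nptx1 (-1.34), the immediate early gene Egr1 (-1.12) and Tril (-1.10) completed the 8. Nptx1 was the 1 lower gene among the 47, at 3.69 to 4.07 FPKM in naive_untreated, 2.15 to 2.88 in tumor_untreated and 0.795 to 1.42 in tumor_GEMy.

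B cell and plasma cell genes were lower for 8 of 12 tested members and higher for 0, with a median of -0.74, where 25.6% of all tested genes were lower. Fcer2a was at 2.29, 3.39, 3.32 and 3.85 FPKM in naive_untreated and 0.699, 0.960, 0.604 and 1.20 in tumor_GEMy, with no overlap (adjusted p = 9.22e-06). Cd79b and Cd79a, the signalling chains of the B cell receptor, each fell by 1.08. Xbp1, Jchain, Cd37 and the secretory gene Mzb1 did not pass. After median-of-ratios scaling 7 members were lower and the median was -0.68.

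Genes of resident lung cells had medians below 0, where 25.6% of all tested genes were lower. In the alveolar epithelial list 6 of 19 tested members were lower (median -0.38), a share near that background, in the airway list 9 of 13 (-0.29), in the endothelial list 11 of 18 (-0.33) and in the fibroblast and smooth muscle list 10 of 17, with 1 higher (-0.33). The fibroblast and smooth muscle count was 6 without naive_untreated replicate 1 or without tumor_GEMy replicate 2. In tumor_untreated the alveolar and airway counts of lower members were 13 of 19 and 13 of 13, where 27.2% of all tested genes were lower. Median-of-ratios scaling kept each median below 0 but left 2, 5, 9 and 7 members lower. The alveolar count was 13 with only the compared groups in the fit, 11 with the replicate block and 14 with array weights. Counts against naive_untreated therefore do not by themselves show a difference from tumor_untreated. Compared directly with tumor_untreated, 1 alveolar member was higher and 0 lower (median 0.20), where 3% of all tested genes were higher. Sftpc was at 4395 to 4864 FPKM in naive_untreated and 3479 to 4239 in tumor_GEMy (log2 -0.32, adjusted p = 0.0154). Of 22 matrix and niche genes 8 were higher and 2 lower, with a median of 0.03, near the 39.3% of all tested genes that differed. The neutrophil collagenase gene Mmp8 (3.18) and Mmp9 (2.27) were the furthest up, while Spp1 was among the returned genes and Fn1, Lox and the collagen genes Col1a1, Col1a2 and Col3a1 did not pass. Of 8 goblet cell and type 2 genes 5 were higher and 1 lower (median 0.46), and 3 were higher with voom, without naive_untreated replicate 2, 3 or 4, or without tumor_GEMy replicate 3 or 4. Of 8 stem and progenitor genes 2 were higher and 3 lower (median -0.06), where 39.3% of all tested genes differed in either direction. Cardiac muscle genes were lower for 6 of 11 (median -0.42), but for 3 without naive_untreated replicate 1, 2 without tumor_GEMy replicate 2 and 10 with array weights. Adipocyte and mesothelial genes were lower for 2 of 8 (median -0.11), near the 25.6% of all tested genes, and tumor and skeletal muscle genes for 1 of 2.

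**Figure D5:**
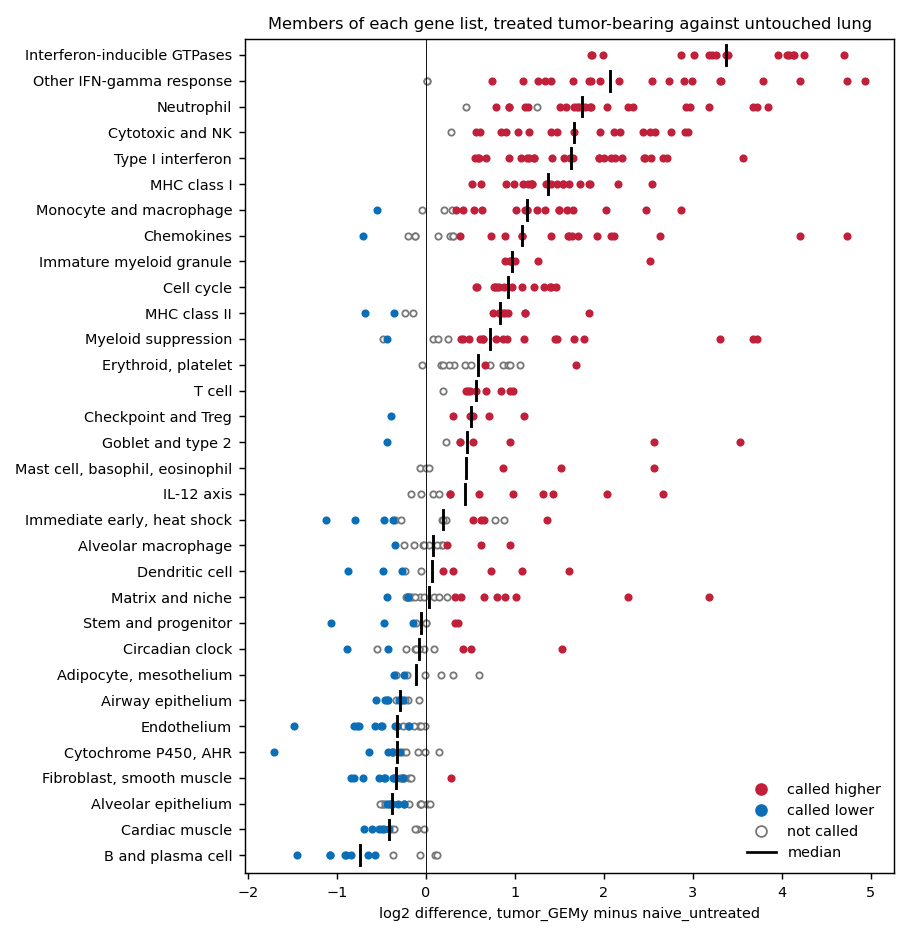
Each point is a tested member of a gene list, at its log2 difference between tumor_GEMy and naive_untreated; filled points passed the test and the bar is the list's median. Interferon-inducible GTPases lie furthest to the right with a median of 3.37, and B cell and plasma cell genes furthest to the left with a median of -0.74.

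Cell cycle genes were higher for 14 of 14 tested members, with a median of 0.92. Mki67, a marker of dividing cells, went from 0.865 to 1.17 FPKM in naive_untreated to 3.52 to 3.99 in tumor_GEMy (log2 1.46, adjusted p = 4.74e-07), and 10 of the 14 were also higher than in tumor_untreated. The injected cells carried Mki67 at 59.4 FPKM, and their part in these values was not tested. The myeloid suppression list had 17 of 22 tested members higher than in naive_untreated and 1 lower, Ptges (-0.44), where 13.6% of all tested genes were higher. Compared directly with tumor_untreated, 8 of the 22 were lower and 3 higher, where 3.72% of all tested genes were lower and 3% higher. By the rules above, 4 were part way back and 1 returned. Against naive_untreated, S100a8, S100a9, Ido1, Lilrb4a, Trem1, Pirb and Cd33 stood between 1.45 and 3.72, while Arg1, Tgfb1, Cebpb and Vegfa did not pass. Of 6 checkpoint and regulatory T cell genes 5 were higher, led by Il10 and Lag3 (0.71), and Btla fell by 0.39.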

How the data were processed

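Whole lungs were profiled by RNA sequencing, and the authors deposited FPKM for 18262 genes in 17 libraries. Per the submitters' processing notes, STAR 2.7.3a, Partek and the mouse build mm10 were used. The annotation, trimming and treatment of multiply mapped reads are not given in the sources used here. FPKM times the listed gene span, introns included, summed to 1000000 in each column, so the span was the length used and levels are not comparable between genes with different intron content. Assigned reads per library were recovered from the step between low values. Whole reads, within 0.02, were found for 86.7 to 88.4% of values under 1000 reads. Ends of genes are 1 base less than the listed stop, which lies past the RefSeq end.

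Groups came from the sample titles. limma 3.58.1 in R 4.3.3 fitted 4 group means over the 16 lung libraries on log2(FPKM + 0.5), using 2-sided tests moderated with the trend and robust options, for the 10284 genes that reached 0.5 FPKM in 4 or more of those libraries. P-values were adjusted by Benjamini-Hochberg over all genes tested, at a threshold of 0.05, and the script was tested on simulated data. Members of the 33 gene lists were counted without a set test. The genes, lists and tests were chosen with earlier results of these data known. Genes were named by a rule: the 10 largest rises and 8 largest falls among genes that passed with no overlap of libraries (predicted models, pseudogenes, histone, ribosomal, receptor segment and small RNA genes left out), the 2 most changed members of each list, 5 genes of each outcome after treatment and a set list. Genes named as examples of a list or outcome beyond these were chosen after their values were seen.

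The alternatives tried included pseudocounts of 0.1 and 1, a minimum of 0 or 1 FPKM, median-of-ratios scaling, quantile normalization, RPM, plain moderation, only the compared groups, a replicate block, array weights, a hemoglobin covariate, a margin of 1.5-fold and each library left out. Voom on recovered reads was chosen after seeing the data. Promoters came from RefSeq (GRCm38.p6, the assembly of mm10), matched by symbol for 8132 of 10284 tested genes. Arg1, Ciita, Zbp1 and Gbp6 had no entry. Plots used matplotlib 3.10.9 under python 3.11.15. Values of a few single genes are not reported here.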

Additional observations from a re-analysis of the deposited data

Results flagged for a closer look

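Within groups of 4 libraries, 1 value stood far from the other 3 in 7 of 82 groups looked at (41 genes in tumor_GEMy and naive_untreated). Chance flags about 1 in 20 groups. In tumor_GEMy replicate 1, S100a8 was at 1046 FPKM where the others were at 362 to 419, and S100a9 was at 631 FPKM where the others were at 209 to 272. The same library had the lowest Il12rb2, at 0.107 FPKM against 0.137 to 0.141. In tumor_GEMy replicate 3, Nptx1 was at 0.795 FPKM against 1.38 to 1.42. In naive_untreated replicate 3, Cd300e was at 0.785 FPKM against 0.599 to 0.615, and Cyp1a1 was at 2.12 FPKM against 3.23 to 3.37. In naive_untreated replicate 4, Gbp6 was at 1.40 FPKM against 2.08 to 2.21. No cause was tested for any of these.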

How the results depend on the processing

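Of 83 named genes with a test, 76 kept their direction and side of the threshold in each of 21 settings, and no called gene changed direction. Among the exceptions, the calls of Emp2, Slc4a1 and Upk1b were lost in some settings. Nr4a1 and Treml4 each passed in 1, and the uncalled differences of Arg1 and Nr4a1 changed sign with quantile normalization (-0.25) and array weights (0.19). Genes at least 2-fold lower numbered 42 with a pseudocount of 0.1, 9 with median-of-ratios scaling, 62 on RPM and 61 with voom, and genes at least 2-fold higher 631 on RPM and 467 with voom. All lower genes numbered 1605 with median-of-ratios scaling. Genes that stayed away numbered 338 with a pseudocount of 0.1, 447 on RPM and 386 with voom, holding 222, 222 and 220 of the 222. Returned genes numbered 65 with array weights, 6 at a margin of 1.5-fold and 22 to 68 with 1 library left out. Of the 33, 13 were kept with a pseudocount of 0.1, 17 with 1, 14 on RPM and 12 with voom. Genes at least 2-fold away after treatment but within the margin in tumor_untreated numbered 4 at a margin of 1.5-fold and 31 to 56 with 1 library left out. The cause of these shifts was not tested.

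Replicate numbers did not pair the libraries of the 2 groups: deviations of same-numbered libraries correlated at -0.28 to 0.26 across genes and 0 of 4 libraries correlated best with its own number. With the replicate block 1486 genes were higher and 2855 lower, and 36 returned. The number of libraries, and for genes near 0.5 FPKM the added constant, limit the precision.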

Other observations

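Some genes outside the interferon and neutrophil programs also differed from untouched lung, where 39.3% of all tested genes did. In the mast cell, basophil and eosinophil list 3 of 6 tested members were higher: the basophil protease genes Prss34 (log2 2.56, limma adjusted p = 8.21e-06) and Mcpt8 (1.52, adjusted p = 0.00103) and the histamine-forming enzyme gene Hdc (0.87). Prss34 was at 0.338 to 0.482 FPKM in naive_untreated, 0.718 to 3.24 in tumor_untreated and 7.88, 2.98, 5.10 and 4.17 in tumor_GEMy. The injected cells held 64.8 FPKM of Prss34 and 27.6 of Mcpt8, and their part in these values was not tested. The mast cell protease gene Tpsb2 (-0.07) and the receptor gene Kit did not pass.

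Of 13 circadian clock genes 3 were higher and 2 lower, a share near that of all tested genes. Per1 was at 3.00 to 4.59 FPKM in naive_untreated, 12.0 to 20.2 in tumor_untreated and 15.2, 13.5, 10.8 and 9.27 in tumor_GEMy, with no overlap between the tumor-bearing groups and untouched lung (log2 1.53, adjusted p = 6.77e-06). Nr1d1 was lower by -0.89 (adjusted p = 0.00226), and the time of day at which lungs were taken is not given in the sources used here. Among cytochrome P450 and aryl hydrocarbon receptor genes 5 of 12 were lower and 0 higher (1 higher with median-of-ratios scaling or array weights), where 25.6% of all tested genes were lower and 39.3% differed in either direction, with Ahr at -0.64 (adjusted p = 0.00233) beside Cyp1a1. In the list of immediate early and heat shock genes 4 of 15 were higher and 4 lower. With median-of-ratios scaling 2 were lower, and with array weights 7 were higher. Atf3 was at 1.36 while Egr1, Ier3, Dusp1 and Ier2 lay between -1.12 and -0.37. In tumor_untreated 9 of the 15 were higher and 2 lower than in naive_untreated, where 16.9% of all tested genes were higher and 27.2% lower. Compared directly with tumor_untreated, 4 were lower and 0 higher in tumor_GEMy, where 3.72% of all tested genes were lower. Of 14 erythroid and platelet genes 2 passed against naive_untreated. The count was 1 in many settings, among them a pseudocount of 1, median-of-ratios scaling, quantile normalization and the hemoglobin covariate. That covariate is the sum of 4 genes of this list. The count was 0 without naive_untreated replicate 1 or 3 or tumor_GEMy replicate 1 or 2. The erythroid gene Slc4a1 (1.69, adjusted p = 0.0284) lost its call in those 4 settings, with voom and with only the compared groups. Hemoglobin levels differed several-fold between libraries of 1 group.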
